A study of Mus musculus with 18 samples.

Results

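The change of the ovarian transcriptome from postnatal day (Pd) 3 to Pd7 was followed in the female offspring of dams with diet-induced hyperhomocysteinemia (F1-HHcy), with 3 libraries at each age. These 6 of the 18 libraries of the series were chosen by their labels for diet and day, and no measured value entered the choice. The dams were C57BL/6J wild-type mice on a chow with 3% methionine by weight, given from before mating until the end of lactation, and the pups themselves received no treatment. The time on the diet before mating is 4 weeks in the labels, and the study's methods give a longer one. For comparison, F1-Control pups of dams on normal chow were taken at the same ages, again with 3 libraries per age, and all 12 libraries carried the label of batch 1. RNA came from whole ovaries. Whether a library held 1 pup or several, and whether pups shared a litter, is not given in the sources used here, so p-values measure the spread between libraries, which may in part be technical.

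In the mouse ovary of this age, oocytes leave their germ cell cysts and are enclosed by flattened pregranulosa cells to form primordial follicles. A first wave of follicles, mostly in the medulla, starts to grow at once. Oocytes that arrest late in meiotic prophase and then enter growth turn down the synaptonemal complex genes and the early germ cell program. They turn on zona pellucida proteins, secreted growth factors and maternal stores. Granulosa cells of growing follicles acquire inhibin, anti-Müllerian hormone and FSH receptor, and send hedgehog ligands to the surrounding stroma, from which steroid-producing theca cells and smooth muscle arise. Homocysteine is the product of methionine after its methyl group has been given away, and is removed by remethylation or by cystathionine β-synthase (Cbs).

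The deposited values carry no unit and were taken as FPKM, the number of fragments on a gene divided by its length in kilobases and by the size of the library. Depth ran from 33630487 to 37059285 fragments, so that 1 FPKM on a gene of 1 kilobase stood for 33.6 fragments or more. Tests used log2(FPKM + 1), and a gene entered a test if 3 or more of its libraries reached 1 FPKM. Changes are Pd7 minus Pd3 on that scale, which understates the change of genes near 1 FPKM. Values per library are in the order of replicates 1, 2 and 3, and replicates of different groups were not matched. In whole ovaries, fewer cells of a type and less RNA per cell cannot be told apart.

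The Pd3 libraries of F1-HHcy were not alike. Across the 13257 genes tested, the correlation of log2 values was 0.983 between replicates 1 and 2, 0.959 between replicates 2 and 3, and 0.940 between replicates 1 and 3, while the Pd7 libraries correlated at 0.975 to 0.994. Replicate 1 correlated with the 3 Pd7 libraries at 0.978 to 0.980, above its correlation with replicate 3 of its own age. It differed from replicate 3 by more than 2-fold in 1031 genes, and from the Pd7 libraries in 158 to 259 genes. Replicate 3 was farthest from Pd7, with 1505 to 1560 genes beyond 2-fold.

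Replicate 3 also carried high levels of immediate early genes, which cells switch on within minutes of a stimulus. The 17 listed genes summed to 528, 339 and 3879.5 FPKM at Pd3 and to 121, 86.2 and 535 FPKM at Pd7. Egr1, a zinc finger factor of this response, was at 138, 78.4 and 536 FPKM at Pd3 and 24.9, 15.8 and 118 FPKM at Pd7. Jun, a subunit of AP-1, was at 79.7, 65.4 and 467 FPKM at Pd3 and 14.2, 8.85 and 63.6 FPKM at Pd7. Both genes were highest in replicate 3 at either age. The part of this response in the results was not tested. Where a list median printed below is above 0.1 in size and moved by over 1.5 times without Pd3 replicate 3, both values are given. Some lists without a printed median moved as far, such as immediate early genes (-2.23 to -1.02) and S phase and mitosis (-0.14 to -0.35).

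To place each library on a scale of normal development, the genes that changed from Pd3 to Pd7 in F1-Control were used as a ruler, on which 0 is the mean of F1-Control Pd3 and 1 the mean of F1-Control Pd7. This scale was added after the data were seen. Over the 807 genes higher at Pd7 in F1-Control, the F1-HHcy Pd3 libraries had median positions of 1.13, 1.00 and 0.38, and the Pd7 libraries 1.24, 1.16 and 1.19. Over the 762 genes lower at Pd7 in F1-Control, they had positions of 1.19, 0.81 and 0.32 at Pd3, and of 1.35, 1.39 and 1.23 at Pd7. The F1-Control Pd7 libraries themselves were at 0.86, 0.99 and 1.14 on the first and at 0.73, 1.10 and 1.17 on the second. They centre near 1 by construction, since the genes and both ends of the scale came from the control libraries. F1-HHcy Pd3 replicate 2 thus lay within the range of F1-Control Pd7, replicate 1 within it on the first and just above it on the second, and replicate 3 between the control ages. All 3 F1-HHcy Pd7 libraries lay above this range on both, narrowly on the first.

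**Figure D1:**
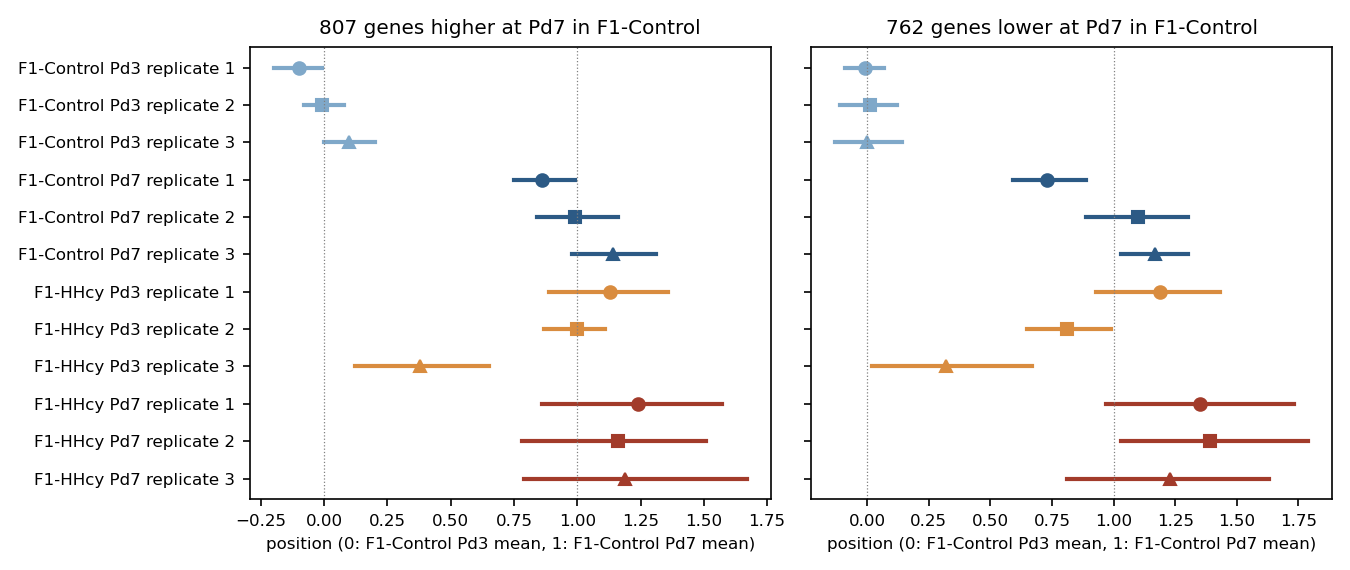
Position of each library of batch 1 between the mean of F1-Control Pd3 (0) and the mean of F1-Control Pd7 (1), over the 807 genes higher and the 762 genes lower at Pd7 in F1-Control; points are medians over genes and bars run from the first to the third quartile. The F1-HHcy Pd3 libraries spread from 0.38 to 1.13 on the left and from 0.32 to 1.19 on the right, and the F1-HHcy Pd7 libraries lie at 1.16 to 1.39.

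No gene passed the test in the 6 F1-HHcy libraries. Of 13257 genes, 0 (0%) were higher and 0 (0%) lower at Pd7 with an adjusted p under 0.05 (limma with Benjamini-Hochberg adjustment) and a log2 change above 0.58 in size, and the smallest adjusted p was 0.0638. An unadjusted p under 0.05 was reached by 3119 genes with limma and by 3079 with limma-voom on recovered fragments, which also called 0 genes. In F1-Control, the same rule called 807 of 13336 genes higher (6.05%) and 762 lower (5.71%).

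The count of 0 depended on 1 library and on how the spread was estimated. Without F1-HHcy Pd3 replicate 1, which leaves 2 libraries at Pd3, 540 of 13107 genes were higher at Pd7 (4.12%) and 596 were lower (4.55%). Leaving out any of the other 5 libraries gave 0 genes in either direction. With the spread estimated from all 12 libraries of batch 1 in 1 model, 320 genes were higher (2.41%) and 324 lower (2.44%), and 554 of these 644 genes were among the 1136 called without replicate 1. Under a looser criterion, an unadjusted p under 0.05 with a log2 change above 0.58 in size, 760 genes were higher (5.73%) and 711 lower (5.36%). Genes past it are called nominally higher or nominally lower below, and each count of them is to be read against these shares. All 3 Pd7 libraries lay above all 3 Pd3 libraries for 1935 genes (14.6%) and below them for 2133 genes (16.1%). Single genes are given with their adjusted p (limma) in 6 libraries, which was above 0.05 for every gene, and for many with a second one from the fit without Pd3 replicate 1, called the 5-library fit. Since replicate 1 was the Pd3 library closest to Pd7, leaving it out widens the difference between the ages by construction, and the 5-library values describe how far the result depends on it and are no separate support. The fit without Pd3 replicate 3 had a smallest adjusted p of 0.112.

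**Figure D2:**
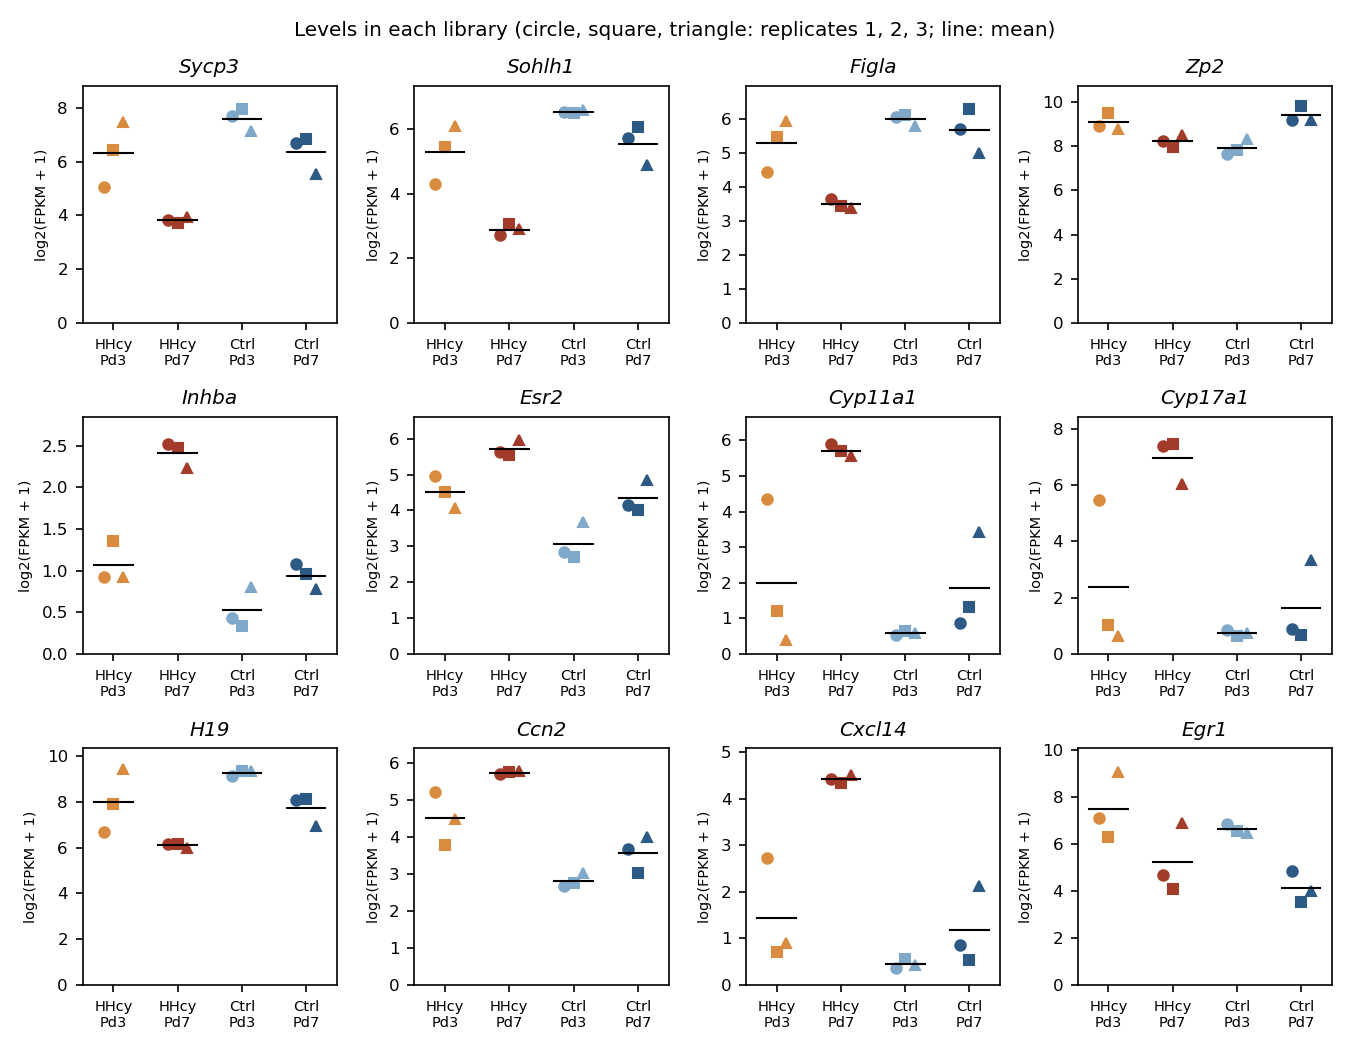
Levels of 12 genes as log2(FPKM + 1) in each library of F1-HHcy and F1-Control (Ctrl) at Pd3 and Pd7; circles, squares and triangles are replicates 1, 2 and 3, lines are means of 3 libraries, and axes start at 0 with a range of their own. Sycp3, Sohlh1, Figla and H19 lie lower and Inhba, Esr2, Cyp11a1, Cyp17a1, Ccn2 and Cxcl14 higher in all 3 F1-HHcy Pd7 libraries than in all 3 F1-HHcy Pd3 libraries, with wide spread at Pd3.

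The meiotic program was nominally lower at Pd7 in 8 of 18 tested genes and higher in 0. Sycp3, a lateral element protein of the synaptonemal complex, was at 32.5, 84.4 and 178 FPKM at Pd3 and 13.2, 12.0 and 14.2 FPKM at Pd7. The ages did not overlap, Pd7 was tight, and at Pd3 replicate 3 was highest and replicate 1 lowest. Its log2 change was -2.50 (SE 0.53, adjusted p = 0.0961) in 6 libraries and -3.13 (adjusted p = 0.00535) in the 5-library fit. Smc1b, the meiotic cohesin subunit, was at 13.7, 30.9 and 46.4 FPKM at Pd3 and 6.44, 6.53 and 5.60 FPKM at Pd7 (log2 change -1.97, SE 0.38, adjusted p = 0.0961, 0.0038 in the 5-library fit). Sycp1, the transverse filament of the same complex, was at 3.98, 8.71 and 15.0 FPKM at Pd3 and 2.41, 1.92 and 1.53 FPKM at Pd7. The order of the Pd3 libraries was that of Sycp3 in both genes. Over the list, 12 genes had every Pd7 library below every Pd3 library, 6 of 17 were lower and 0 higher in the 5-library fit, and the median change was -0.48, against -0.03 for all genes tested. Hormad1, which marks unsynapsed axes, did not enter the test, at 0.474, 0.740 and 8.55 FPKM at Pd3 and 0.198, 0.0619 and 0.126 FPKM at Pd7. Stra8, the gatekeeper of meiotic entry, was at most 0.0161 FPKM.

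Among 18 tested genes of germ cell identity and nuage, the perinuclear granule of the piRNA pathway, 11 were nominally lower and 1, Tdrd12, was nominally higher. In the 5-library fit 10 were lower and 0 higher. The median change was -0.88 in 6 libraries, -1.09 without Pd3 replicate 1 and -0.63 without Pd3 replicate 3. Ddx4, the germ line RNA helicase, was at 10.3, 16.1 and 16.4 FPKM at Pd3 and 6.84, 5.85 and 6.95 FPKM at Pd7. Its ages did not overlap, and its Pd3 libraries were closer to each other than those of Sycp3 (log2 change -0.99, SE 0.19, adjusted p = 0.0935, 0.00743 in the 5-library fit). Mael, which acts in piRNA-guided silencing of transposons, was at 23.1, 48.3 and 87.4 FPKM at Pd3 and 14.8, 12.3 and 11.2 FPKM at Pd7. Every Pd7 value was below every Pd3 value. Mov10l1, a helicase of the piRNA pathway, had a log2 change of -1.99 (adjusted p = 0.0961, 0.0048 in the 5-library fit), and Piwil2, an Argonaute protein, one of -1.90 (adjusted p = 0.0969, 0.00823 in the 5-library fit).

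Kit, the receptor through which oocytes receive an activating signal, was at 20.5, 36.5 and 65.5 FPKM at Pd3 and 15.3, 15.3 and 23.1 FPKM at Pd7. Pd3 replicate 1 lay within the Pd7 range, so the ages overlapped (log2 change -1.02, adjusted p = 0.175, 0.0322 in the 5-library fit). Its ligand Kitl ranged from 36.0 to 51.5 FPKM over the 6 libraries. Dppa3, a maternal factor that guards DNA methylation in the egg, was at 319, 529.9 and 628 FPKM at Pd3 and 265, 229 and 208 FPKM at Pd7 (log2 change -1.02, adjusted p = 0.1, 0.0119 in the 5-library fit). In F1-Control, Sycp3 was at 204, 245 and 138 FPKM at Pd3 and 103, 112 and 44.9 FPKM at Pd7, and Mael was at 92.5, 92.4 and 67.8 FPKM at Pd3 and 58.2, 90.0 and 37.2 FPKM at Pd7. For both genes, every F1-HHcy Pd7 library lay below every F1-Control Pd7 library. The difference between the diets' changes was -1.27 for Sycp3 (adjusted p = 0.367, limma) and -1.27 for Mael (adjusted p = 0.276).

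Of 12 tested oocyte transcription factors, 6 were nominally lower and 3, all Obox genes, nominally higher. Sohlh1, a helix-loop-helix factor of early oocytes, was at 18.7, 42.7 and 67.9 FPKM at Pd3 and 5.61, 7.33 and 6.52 FPKM at Pd7. Pd7 was below Pd3 in every library, with the order of the Pd3 libraries as in Sycp3 (log2 change -2.39, SE 0.41, adjusted p = 0.0892, 0.0038 in the 5-library fit). Figla, which is needed for primordial follicles to form and for zona genes to be transcribed, was at 20.8, 43.7 and 60.7 FPKM at Pd3 and 11.5, 9.90 and 9.55 FPKM at Pd7. The ages again did not overlap (log2 change -1.79, SE 0.35, adjusted p = 0.0961, 0.0038 in the 5-library fit). In F1-Control it was at 66.0, 68.3 and 55.3 FPKM at Pd3 and 50.9, 78.6 and 31.1 FPKM at Pd7, where the ages overlapped, and the difference between the diets' changes was -1.47 (adjusted p = 0.178). Nobox, a homeobox factor of oocyte growth, had a log2 change of -1.09 (adjusted p = 0.156, 0.0493 in the 5-library fit), and Lhx8, a LIM factor of the same stage, one of -0.93 (adjusted p = 0.151, 0.0299 in the 5-library fit). Obox1, of an oocyte homeobox family, was at 42.0, 17.0 and 0.977 FPKM at Pd3 and 70.7, 66.8 and 50.1 FPKM at Pd7. All Pd7 values were above all Pd3 values, and Pd3 replicate 3 was far below the other libraries. Obox genes lie in a cluster of near-identical copies, so the assignment of their reads is uncertain. In the 5-library fit 7 factors were lower and 0 higher.

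Figla and Sohlh1 belong to a class of factors that bind E-boxes, short motifs with the letters CANNTG. The 250 bases before the annotated start are shown for both genes and for Zp3, a classic target of Figla, because all 3 had lower means at Pd7. Sequences are from RefSeq (GRCm38.p6), 5′ to 3′ on the gene's strand, with CAGGTG or its reverse complement CACCTG, 1 form of the E-box, in capitals.
Zp3 (chr5:135979855-135980104, plus strand): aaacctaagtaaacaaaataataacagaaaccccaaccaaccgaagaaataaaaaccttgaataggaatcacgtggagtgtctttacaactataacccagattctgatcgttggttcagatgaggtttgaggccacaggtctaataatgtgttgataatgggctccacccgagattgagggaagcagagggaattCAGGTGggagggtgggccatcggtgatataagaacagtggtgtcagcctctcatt
Sohlh1 (chr2:25847249-25847498, minus strand): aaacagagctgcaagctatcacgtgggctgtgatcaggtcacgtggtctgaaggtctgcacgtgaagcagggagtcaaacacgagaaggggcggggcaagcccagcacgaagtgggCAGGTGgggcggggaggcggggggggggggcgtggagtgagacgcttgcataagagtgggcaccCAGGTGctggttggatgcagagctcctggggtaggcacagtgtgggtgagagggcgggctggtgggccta
Figla (chr6:86016941-86017190, plus strand): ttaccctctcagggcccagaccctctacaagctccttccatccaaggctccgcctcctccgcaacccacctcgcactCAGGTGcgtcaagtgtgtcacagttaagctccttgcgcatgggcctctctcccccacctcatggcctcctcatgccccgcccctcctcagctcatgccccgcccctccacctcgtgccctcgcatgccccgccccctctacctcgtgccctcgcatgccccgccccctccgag
The window of Zp3 held 1 such match, that of Sohlh1 2 and that of Figla 1. Other forms of the E-box were left in lower case and not counted, among them CACGTG in the windows of Zp3 and Sohlh1. Over all 32851 promoter entries of the table, 17.2% held CAGGTG or CACCTG and 66.2% held some CANNTG in the same window. Of the 12 oocyte transcription factors with an entry, 5 held CAGGTG or CACCTG, as did 8 of 24 meiotic prophase genes and 5 of 18 genes of germ cell identity and nuage. These counts are of genes with a match in any entry, while 17.2% is a share of entries, so they are not a like comparison. A match describes the letters only and shows no binding.

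Zona pellucida genes, which encode the coat around the growing oocyte, were nominally lower at Pd7 in 1 of 3 and higher in 0. Zp2, a structural protein of the coat, was the lower one, at 488, 728 and 444 FPKM at Pd3 and 301, 250.4 and 359 FPKM at Pd7. Every Pd7 library lay below every Pd3 library (log2 change -0.84, SE 0.22, adjusted p = 0.108, 0.0758 in the 5-library fit). In F1-Control Zp2 rose, being at 202, 226 and 321 FPKM at Pd3 and 591, 906 and 578 FPKM at Pd7 (adjusted p = 0.0067). Zp3, the sperm-binding zona protein, was at 369.5, 474 and 288 FPKM at Pd3 and 228, 187 and 346 FPKM at Pd7 in F1-HHcy. The ages overlapped (log2 change -0.59, SE 0.27, adjusted p = 0.234). In F1-Control Zp3 rose, being at 130.1, 163 and 217 FPKM at Pd3 and 354, 689 and 479 FPKM at Pd7 (adjusted p = 0.00754).

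Growth factors of the growing oocyte were nominally higher at Pd7 in 2 of 7 and lower in 0, with a median change of 1.04, and of 0.29 without Pd3 replicate 3. Bmp15, a growth factor that the oocyte sends to its granulosa cells, was at 34.0, 20.1 and 3.70 FPKM at Pd3 and 64.1, 56.1 and 77.3 FPKM at Pd7. All Pd7 values exceeded all Pd3 values, and Pd3 replicate 3 was lowest (log2 change 2.13, SE 0.66, adjusted p = 0.136, 0.0342 in the 5-library fit). Gdf9, its partner, overlapped between the ages, at 215, 168 and 83.9 FPKM at Pd3 and 198, 168 and 312 FPKM at Pd7. In the Oog, Pramel, Tcl1 and Fbxw families, which are arranged in clusters of like copies, 9 of 23 tested genes were nominally higher and 0 lower, with 3 higher in the 5-library fit. The median change was 1.03, and 0.43 without Pd3 replicate 3. Oog3, an oogenesin, was at 9.94, 1.16 and 3.11 FPKM at Pd3 and 39.6, 31.2 and 45.2 FPKM at Pd7. Pd7 was above Pd3 in every library (log2 change 3.09, SE 0.52, adjusted p = 0.0892, 0.0038 in the 5-library fit), and F1-Control Pd7 held 0.680, 0.839 and 2.31 FPKM. The difference between the diets' changes in Oog3 was 1.97 (adjusted p = 0.161, limma).

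The subcortical maternal complex and the Nlrp family, proteins stored for the embryo, split. Of 17 genes 7 were nominally higher (Nlrp2, Nlrp4a, Nlrp4b, Nlrp4e, Nlrp9a, Nlrp9b and Nlrp9c) and 3 lower (Nlrp4c, Nlrp5 and Padi6). Padi6, a scaffold of the oocyte's cytoplasmic lattices, was at 479.6, 687 and 587 FPKM at Pd3 and 226, 211 and 472 FPKM at Pd7. The ages did not overlap, since Pd7 replicate 3 lay just below Pd3 replicate 1 (log2 change -1.03, adjusted p = 0.133, 0.0905 in the 5-library fit). Nlrp5, known as Mater, was at 139, 232 and 254 FPKM at Pd3 and 95.0, 80.2 and 151 FPKM at Pd7, where Pd7 replicate 3 overlapped Pd3 replicate 1 (log2 change -0.94, adjusted p = 0.139, 0.0404 in the 5-library fit).

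Granulosa cell genes were nominally higher at Pd7 in 8 of 20 and lower in 1, Gatm, with a median change of 0.86, and of 0.51 without Pd3 replicate 3. In the 5-library fit 7 were higher and 1 lower. Inhba, the βA subunit of activin and inhibin, was at 0.890, 1.57 and 0.896 FPKM at Pd3 and 4.75, 4.55 and 3.69 FPKM at Pd7. All 3 Pd3 libraries were low and did not overlap with Pd7. Its log2 change was 1.34 (SE 0.17, adjusted p = 0.0892) in 6 libraries, 1.27 (adjusted p = 0.0154) in the 5-library fit and 1.27 without Pd3 replicate 3. In F1-Control it was at 0.350, 0.263 and 0.752 FPKM at Pd3 and 1.11, 0.947 and 0.722 FPKM at Pd7. Inha, the common α subunit of the inhibins, was at 211, 106 and 79.9 FPKM at Pd3 and 264, 267 and 448 FPKM at Pd7. Replicate 1 stood above the other Pd3 libraries and below all of Pd7 (log2 change 1.37, adjusted p = 0.111, 0.0161 in the 5-library fit). Esr2, the estrogen receptor of granulosa cells, had the same layout at 30.4, 21.6 and 15.8 FPKM at Pd3 and 48.8, 45.2 and 60.9 FPKM at Pd7 (log2 change 1.19, SE 0.23, adjusted p = 0.0961, 0.0122 in the 5-library fit).

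Further granulosa cell genes were less uniform. Gja1, the gap junction protein between granulosa cells, was at 192, 120.5 and 74.8 FPKM at Pd3 and 212, 218 and 371 FPKM at Pd7 (log2 change 1.10, adjusted p = 0.146, 0.0385 in the 5-library fit). Amh, the hormone that restrains primordial follicles, was at 99.7, 35.2 and 9.72 FPKM at Pd3 and 68.0, 60.5 and 146 FPKM at Pd7. Its Pd3 replicate 1 lay above the Pd7 replicates 1 and 2, so the ages overlapped (adjusted p = 0.325, 0.0667 in the 5-library fit). Fshr, the FSH receptor, overlapped through Pd3 replicate 1 and Pd7 replicate 3, at 7.21, 2.79 and 0.590 FPKM at Pd3 and 9.61, 10.4 and 4.89 FPKM at Pd7. Foxl2, which keeps granulosa cell identity, ranged from 54.9 to 74.7 FPKM over the 6 libraries (log2 change 0.12, adjusted p = 0.622). Cyp19a1, which encodes aromatase, was at most 5.10 FPKM.

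Genes of the ovarian surface and the pregranulosa cells that descend from it were nominally lower at Pd7 in 7 of 19 and higher in 0, with 5 lower in the 5-library fit. The median change was -0.35, and -0.55 without Pd3 replicate 3. Lgr5, a receptor for R-spondins on these cells, was at 11.9, 26.6 and 20.5 FPKM at Pd3 and 6.05, 6.25 and 5.46 FPKM at Pd7. Pd7 was tight and below all of Pd3 (log2 change -1.51, SE 0.26, adjusted p = 0.0892, 0.00475 in the 5-library fit). Rspo1, an R-spondin of the developing ovary, was at 25.5, 44.6 and 43.2 FPKM at Pd3 and 16.6, 19.8 and 11.2 FPKM at Pd7, again without overlap (log2 change -1.19, adjusted p = 0.0969, 0.0171 in the 5-library fit). Krt8, a keratin of simple epithelia, was at 58.3, 102 and 88.1 FPKM at Pd3 and 33.4, 41.7 and 34.8 FPKM at Pd7. Its partner Krt18 was at 55.0, 104 and 111 FPKM at Pd3 and 35.4, 39.1 and 27.2 FPKM at Pd7. For both keratins every Pd7 library was below every Pd3 library. Other listed genes overlapped between the ages, among them Upk1b, Upk3b, Msln and Muc16. Their log2 changes were -0.14, -0.32, -0.21 and -0.25 (adjusted p = 0.891, 0.628, 0.531 and 0.63, limma). In the Wnt list, 9 of 27 genes were nominally lower and 1, Lgr6, higher. Axin2, a common readout of β-catenin signalling, was at 13.3, 18.4 and 18.8 FPKM at Pd3 and 10.8, 10.7 and 8.36 FPKM at Pd7 (log2 change -0.70, adjusted p = 0.0995, 0.023 in the 5-library fit).

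Theca and steroid genes were nominally higher at Pd7 in 9 of 18 and lower in 2, Hsd3b6 and Stard4. Cyp17a1, which makes androgens from progestins, was at 43.3, 1.06 and 0.552 FPKM at Pd3 and 169, 175 and 64.3 FPKM at Pd7. Pd3 replicate 1 was far above the other Pd3 libraries and still below every Pd7 library. The log2 change was 4.58 (SE 1.20, adjusted p = 0.107) in 6 libraries and 6.13 (adjusted p = 0.0038) in the 5-library fit. Cyp11a1, the side-chain cleavage enzyme that starts steroid synthesis, was at 19.5, 1.32 and 0.324 FPKM at Pd3 and 58.4, 50.9 and 46.0 FPKM at Pd7. The layout was the same, with a log2 change of 3.72 (SE 0.90, adjusted p = 0.0995, 0.00113 in the 5-library fit). In F1-Control, Cyp17a1 was at 0.787, 0.576 and 0.665 FPKM at Pd3 and 0.837, 0.599 and 9.03 FPKM at Pd7, and Cyp11a1 was at 0.435, 0.569 and 0.517 FPKM at Pd3 and 0.813, 1.50 and 9.72 FPKM at Pd7. In both genes only Pd7 replicate 3 of F1-Control exceeded 2 FPKM, and it lay below every F1-HHcy Pd7 library.

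Lhcgr, the LH receptor of theca cells, was at 4.35, 0.324 and 0.421 FPKM at Pd3 and 17.6, 14.2 and 6.06 FPKM at Pd7 (log2 change 2.54, adjusted p = 0.0971, 0.00981 in the 5-library fit). Insl3, a peptide hormone of theca cells, was at 0.658, 0.143 and 0 FPKM at Pd3 and 4.54, 4.26 and 1.06 FPKM at Pd7. Pd3 replicate 1 was again the highest of its age in both genes and overlapped with Pd7 in neither. Insl3 entered the test only through its Pd7 libraries, so its lack of overlap followed from the filter. Hsd3b1, a 3β-hydroxysteroid dehydrogenase of the ovary, was at 604, 339.9 and 61.6 FPKM at Pd3 and 897, 935 and 1009 FPKM at Pd7 (log2 change 2.01, adjusted p = 0.169, 0.047 in the 5-library fit). Star, which carries cholesterol into mitochondria, was at 7.69, 5.92 and 8.38 FPKM at Pd3 and 15.7, 16.1 and 9.80 FPKM at Pd7 (log2 change 0.82, adjusted p = 0.105). Nr5a1, the regulator of steroid genes in gonad and adrenal, ranged from 28.4 to 41.5 FPKM. In the 5-library fit 7 genes of the list were higher and 2 lower, and with 12 libraries in 1 model 8 were higher and 1 lower. Of 14 genes tested in F1-Control, 2 were higher and 1 lower. Cyp11b1 and Cyp21a1, enzymes of the adrenal cortex, were at most 0.0113 and 0.534 FPKM in the 6 libraries.

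Hedgehog signals pass from granulosa cells to theca. Ihh, a ligand, was at 4.42, 1.09 and 0.304 FPKM at Pd3 and 4.04, 5.04 and 8.67 FPKM at Pd7. Hhip, a target gene, was at 6.29, 1.46 and 0.226 FPKM at Pd3 and 6.30, 5.67 and 8.70 FPKM at Pd7. Pd3 replicate 1 overlapped with Pd7 for both, while replicates 2 and 3 lay below all of Pd7. The adjusted p of Ihh was 0.159 in 6 libraries and 0.0184 in the 5-library fit, and that of Hhip was 0.185 and 0.0144. Ptch1, receptor and target, had a log2 change of 0.56 (adjusted p = 0.172, 0.0174 in the 5-library fit). Gas1, a co-receptor, was the only nominally lower gene of 14, at 32.8, 48.0 and 52.3 FPKM at Pd3 and 27.1, 25.8 and 19.4 FPKM at Pd7, and Ihh and Hhip were the only nominally higher ones.

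Smooth muscle genes were nominally higher at Pd7 in 7 of 12 and lower in 0, with 5 higher in the 5-library fit. Their median change was 0.99, and 0.48 without Pd3 replicate 3. Acta2, smooth muscle actin, was at 193, 121 and 31.7 FPKM at Pd3 and 239, 273 and 292 FPKM at Pd7. Pd3 replicate 3 was by far the lowest library, and the ages did not overlap (log2 change 1.55, SE 0.58, adjusted p = 0.174, 0.0491 in the 5-library fit). Myh11, the smooth muscle myosin heavy chain, was at 18.5, 16.0 and 4.72 FPKM at Pd3 and 28.0, 35.4 and 49.0 FPKM at Pd7, with the same library lowest (log2 change 1.60, adjusted p = 0.12). Among 21 endothelial and pericyte genes 4 (Flt4, Tie1, Egfl7 and Sox18) were nominally higher and 0 lower. Flt4, the VEGF receptor of lymphatic vessels, was at 2.99, 1.71 and 1.12 FPKM at Pd3 and 6.58, 5.65 and 4.77 FPKM at Pd7, without overlap. Ccl21a, a chemokine of lymphatic endothelium, was at 53.4, 24.0 and 7.89 FPKM at Pd3 and 147, 142 and 132 FPKM at Pd7 (log2 change 2.62, adjusted p = 0.0961, 0.00942 in the 5-library fit). Pecam1, an adhesion protein of endothelium, ranged from 13.4 to 21.9 FPKM (adjusted p = 0.284).

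Matrix genes moved singly. Of 29 collagen genes, 5 were nominally higher and 2 lower, around a median change of -0.05. Col1a1, of fibrillar collagen, overlapped between the ages at 209, 178 and 145 FPKM at Pd3 and 168, 213 and 135 FPKM at Pd7. Col11a1, a minor fibrillar collagen, was at 11.8, 8.60 and 5.71 FPKM at Pd3 and 20.2, 14.9 and 21.3 FPKM at Pd7, where all of Pd7 was above all of Pd3 (log2 change 1.06, SE 0.25, adjusted p = 0.0984, 0.0205 in the 5-library fit). Lamc3, a laminin γ chain, was at 12.0, 4.88 and 2.16 FPKM at Pd3 and 20.1, 20.1 and 22.6 FPKM at Pd7, without overlap and tight at Pd7 (log2 change 1.82, adjusted p = 0.1, 0.00743 in the 5-library fit). Of 23 small proteoglycans and elastic fibre genes, 4 (Ogn, Omd, Aspn and Vcan) were nominally higher and 2 (Eln and Fbln2) lower. Ogn was at 129.6, 87.8 and 32.5 FPKM at Pd3 and 185, 204 and 131 FPKM at Pd7, with Pd3 replicate 3 lowest and Pd3 replicate 1 close to Pd7 replicate 3. Ccn2, a matricellular target of Hippo and TGF-β signals, was at 36.1, 12.9 and 21.6 FPKM at Pd3 and 51.2, 52.7 and 53.8 FPKM at Pd7. Every Pd7 value was above every Pd3 value, and the Pd7 values were nearly equal (log2 change 1.24, SE 0.32, adjusted p = 0.105, 0.0119 in the 5-library fit).

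Imprinted genes of the fetal growth program, which many organs turn down after birth, were nominally lower at Pd7 in 7 of 16 and higher in 1, Nnat. H19, an imprinted noncoding RNA, was at 102, 235 and 678 FPKM at Pd3 and 70.1, 71.1 and 62.7 FPKM at Pd7. The Pd3 libraries stood in the order of Sycp3 and all lay above Pd7 (log2 change -1.89, SE 0.59, adjusted p = 0.138, 0.0175 in the 5-library fit). Igf2, the fetal growth factor beside it, was at 13.8, 29.6 and 85.3 FPKM at Pd3 and 9.57, 10.1 and 7.07 FPKM at Pd7 (log2 change -1.79, adjusted p = 0.138, 0.0214 in the 5-library fit). Dlk1, an imprinted Notch-like protein, was at 7.73, 17.1 and 44.6 FPKM at Pd3 and 4.80, 5.85 and 2.03 FPKM at Pd7, likewise without overlap (log2 change -1.97, adjusted p = 0.129, 0.0257 in the 5-library fit). In F1-Control H19 fell, being at 551, 637 and 640.0 FPKM at Pd3 and 267, 274 and 123 FPKM at Pd7 (adjusted p = 0.0107). F1-HHcy Pd3 replicate 1 lay below every F1-Control Pd7 library for H19, replicate 2 within their range and replicate 3 above every F1-Control library. Of 7 genes of the Lin28 group, which hold let-7 microRNAs and fetal timing, 4 (Lin28a, Hmga1, Igf2bp2 and Trim71) were nominally lower and 0 higher. Lin28a was at 2.46, 3.24 and 8.53 FPKM at Pd3 and 1.63, 1.12 and 2.13 FPKM at Pd7, without overlap.

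Regulators of the G1 phase of the cell cycle were nominally lower at Pd7 in 6 of 21 and higher in 0. Cdkn1c, an imprinted CDK inhibitor that is also in the imprinted list, was at 22.0, 37.2 and 68.2 FPKM at Pd3 and 12.1, 12.8 and 10.7 FPKM at Pd7. Pd7 was tight and below all of Pd3 (log2 change -1.61, SE 0.36, adjusted p = 0.0961, 0.0102 in the 5-library fit). Cdkn1b, which holds cells at rest, was at 41.2, 69.6 and 82.2 FPKM at Pd3 and 37.7, 33.8 and 37.3 FPKM at Pd7. Ccnd2, a cyclin of granulosa cells, was at 48.0, 64.5 and 55.7 FPKM at Pd3 and 32.0, 28.7 and 39.6 FPKM at Pd7 (log2 change -0.73, adjusted p = 0.0961, 0.033 in the 5-library fit). In both genes the ages did not overlap. Of 40 genes of S phase and mitosis 1, Ube2c, was nominally lower and 0 were higher, and Mki67, a marker of cycling cells, overlapped at 53.7, 44.9 and 21.5 FPKM at Pd3 and 34.2, 36.0 and 35.2 FPKM at Pd7.

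The PI3K, AKT, mTOR and Foxo pathway activates primordial follicles. Of its 28 tested genes 1, Foxo1, was nominally higher and 2, Pik3r3 and Foxo6, lower, which is close to the shares of all genes. Foxo1, a transcription factor of granulosa cells, was at 22.8, 11.7 and 8.10 FPKM at Pd3 and 24.0, 25.4 and 55.9 FPKM at Pd7. Foxo3, which keeps primordial follicles dormant, was at 17.0, 21.8 and 28.3 FPKM at Pd3 and 15.1, 15.1 and 15.6 FPKM at Pd7, without overlap (log2 change -0.50, adjusted p = 0.163, 0.0391 in the 5-library fit).

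Growth factor axes gave mixed directions. In the PDGF and IGF list 3 of 18 genes (Pdgfc, Irs1 and Igfbp7) were nominally higher and 4 (Igf2, Igfbp2, Igfbp3 and Igfbp4) lower. Igfbp2, a binding protein that holds IGFs, was at 60.9, 83.2 and 81.3 FPKM at Pd3 and 32.8, 38.9 and 28.5 FPKM at Pd7, with all Pd7 libraries low (log2 change -1.14, SE 0.17, adjusted p = 0.0892, 0.00981 in the 5-library fit). Igf1 overlapped between the ages, from 17.4 to 25.9 FPKM. In the TGF-β family 3 of 32 genes (Bmp3, Bmpr1b and Tgfbr3) were nominally higher and 1, Bambi, lower. In the Notch list 1 of 16, Hey2, was nominally higher and 3 (Jag2, Hes1 and Hey1) lower. In the list of cAMP and cGMP genes 4 of 21 were nominally higher and 1 lower, among them Adcy7, an adenylate cyclase, at 13.9, 8.04 and 5.09 FPKM at Pd3 and 20.2, 22.0 and 19.3 FPKM at Pd7 (log2 change 1.20, adjusted p = 0.1, 0.00987 in the 5-library fit).

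Enzymes that bear on the dams' diet showed shares close to those of all genes. Of 22 tested genes of the methionine and one-carbon cycle 1, Cbs, was nominally higher and 2, Pemt and Phgdh, lower, with a median change of -0.06. Cbs, which commits homocysteine to cysteine, was at 6.66, 0.345 and 0.380 FPKM at Pd3 and 10.2, 12.8 and 13.1 FPKM at Pd7. The layout over the libraries was that of Cyp17a1, with Pd3 replicate 1 far above the other Pd3 libraries and below all of Pd7 (log2 change 2.42, SE 0.63, adjusted p = 0.106, 0.00113 in the 5-library fit). In F1-Control it was at 0.196, 0.203 and 0.166 FPKM at Pd3 and 0.357, 0.0618 and 3.29 FPKM at Pd7, and Pd7 replicate 3 was the highest there too. Phgdh, the entry enzyme of serine synthesis, was at 69.8, 73.4 and 58.2 FPKM at Pd3 and 42.0, 39.5 and 50.5 FPKM at Pd7, without overlap (log2 change -0.60, adjusted p = 0.0989, 0.0835 in the 5-library fit). Mat2a, which makes S-adenosylmethionine, ranged from 68.4 to 74.4 FPKM, and Ahcy, which releases homocysteine, from 23.8 to 50.1 FPKM.

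Of 9 genes of DNA methylation 1, Dnmt3l, was nominally higher and 1, Kdm1b, lower. Dnmt3l, the cofactor of de novo methylation in the growing oocyte, was at 2.17, 0.700 and 0.174 FPKM at Pd3 and 2.73, 2.24 and 5.45 FPKM at Pd7, where all Pd7 values were above all Pd3 values by a narrow margin (log2 change 1.21, adjusted p = 0.146, 0.0337 in the 5-library fit). Kdm1b, a histone demethylase required for maternal imprints, was at 40.5, 56.3 and 88.3 FPKM at Pd3 and 24.2, 20.9 and 31.6 FPKM at Pd7, without overlap in the other direction (log2 change -1.19, adjusted p = 0.0995, 0.0204 in the 5-library fit). Dnmt1, the maintenance methyltransferase, had an adjusted p of 0.457, and Dnmt3a, which methylates the oocyte genome, one of 0.856.

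Blood markers differed between the ages as well. Of 7 tested erythroid genes 6 were nominally lower at Pd7, with 1 lower in the 5-library fit and 0 with 12 libraries in 1 model. The 13 listed genes summed to 868, 1116 and 804 FPKM at Pd3 and 289.9, 506 and 434 FPKM at Pd7. In F1-Control the sum was 11972, 6746 and 4075 FPKM at Pd3 and 6003, 1565 and 931 FPKM at Pd7, above F1-HHcy at both ages. Hba-a1, an α-globin gene, was at 201, 325 and 264 FPKM at Pd3 and 59.3, 104 and 103 FPKM at Pd7, without overlap (log2 change -1.58, adjusted p = 0.0892). The granulocyte markers summed to 10.9, 11.1 and 158 FPKM at Pd3 and 4.50, 3.72 and 33.0 FPKM at Pd7, highest in replicate 3 of both ages, as were the immediate early genes. Of 14 macrophage genes 1, H2-Ab1, was nominally higher and 0 were lower. Of 6 tested adipocyte genes 3 (Plin1, Fabp4 and Pparg) were nominally higher and 0 lower, with Plin1, which coats lipid droplets, at 3.05, 0.824 and 0.379 FPKM at Pd3 and 4.84, 5.60 and 5.59 FPKM at Pd7. Skeletal muscle markers summed to at most 6.20 FPKM and adrenal cortex markers to at most 2.26 FPKM. Ovgp1, an oviduct secretory protein, was at 12.1 FPKM in Pd7 replicate 1 and at most 2.86 FPKM in the other 5 libraries. The part of these cells in the results was not tested.

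The 6 genes with the smallest p (Gm41753, Csmd1, Slc27a1, C1s1, Inhba and Serpina3g) had Pd3 libraries close to each other on the log2(FPKM + 1) scale. A small p favours a small spread within each age, so the selection favoured this layout. Gm41753, a predicted gene, was at 7.83, 6.96 and 6.47 FPKM at Pd3 and 19.3, 18.9 and 21.5 FPKM at Pd7. It had the smallest adjusted p of all genes, with no overlap and no Pd3 library apart (log2 change 1.37, SE 0.12, adjusted p = 0.0638). In F1-Control it overlapped between the ages, at 6.56, 4.53 and 7.72 FPKM at Pd3 and 4.84, 4.85 and 7.29 FPKM at Pd7. Slc27a1, a fatty acid transporter, was at 26.5, 21.7 and 23.9 FPKM at Pd3 and 46.7, 47.9 and 45.8 FPKM at Pd7, with the same even layout (log2 change 0.94, SE 0.11, adjusted p = 0.0892). C1s1, a complement protease, was at 16.6, 17.2 and 18.3 FPKM at Pd3 and 31.7, 30.5 and 31.1 FPKM at Pd7. Csmd1, a membrane protein with complement-control domains, was at 0.277, 0.0193 and 0.00729 FPKM at Pd3 and 1.88, 1.83 and 1.82 FPKM at Pd7. Its Pd3 values, though many-fold apart, lie under 1 FPKM, where this scale is flat. Csmd1 entered the test only through its Pd7 libraries, so the order of its ages followed from the filter.

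Ranked by size among the nominal genes without overlap, an order used because the test had called 0 genes, the 12 largest positive changes were those of Cyp17a1, Cyp11a1, Mgarp, Oog3, Cxcl14, Serpina5, Obox2, Ccl21a, Pramel27, Oog4, Lhcgr and Car14. Mgarp, a mitochondrial protein of steroid-producing cells, was at 5.27, 0.952 and 0.707 FPKM at Pd3 and 19.3, 15.4 and 40.3 FPKM at Pd7 (log2 change 3.12, adjusted p = 0.0894, 0.00642 in the 5-library fit). Cxcl14, a chemokine, was at 5.62, 0.634 and 0.863 FPKM at Pd3 and 20.5, 19.1 and 21.7 FPKM at Pd7 (log2 change 2.98, adjusted p = 0.0892, 0.000636 in the 5-library fit). In both, Pd3 replicate 1 was the highest of its age. The 12 largest negative changes were those of Atf3, Jun, Crygb, Sycp3, Sohlh1, Cnpy1, Crabp1, Mov10l1, Gm15389, Trap1a, Dlk1 and Smc1b. Atf3, an immediate early gene like Jun, was at 6.98, 2.10 and 137 FPKM at Pd3 and 0.415, 0.602 and 1.79 FPKM at Pd7, with replicate 3 highest at both ages. Crabp1, a retinoic acid binding protein, was at 20.8, 31.2 and 47.1 FPKM at Pd3 and 8.44, 8.60 and 4.51 FPKM at Pd7, without overlap (log2 change -2.03, SE 0.33, adjusted p = 0.0892, 0.0107 in the 5-library fit).

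**Figure D3:**
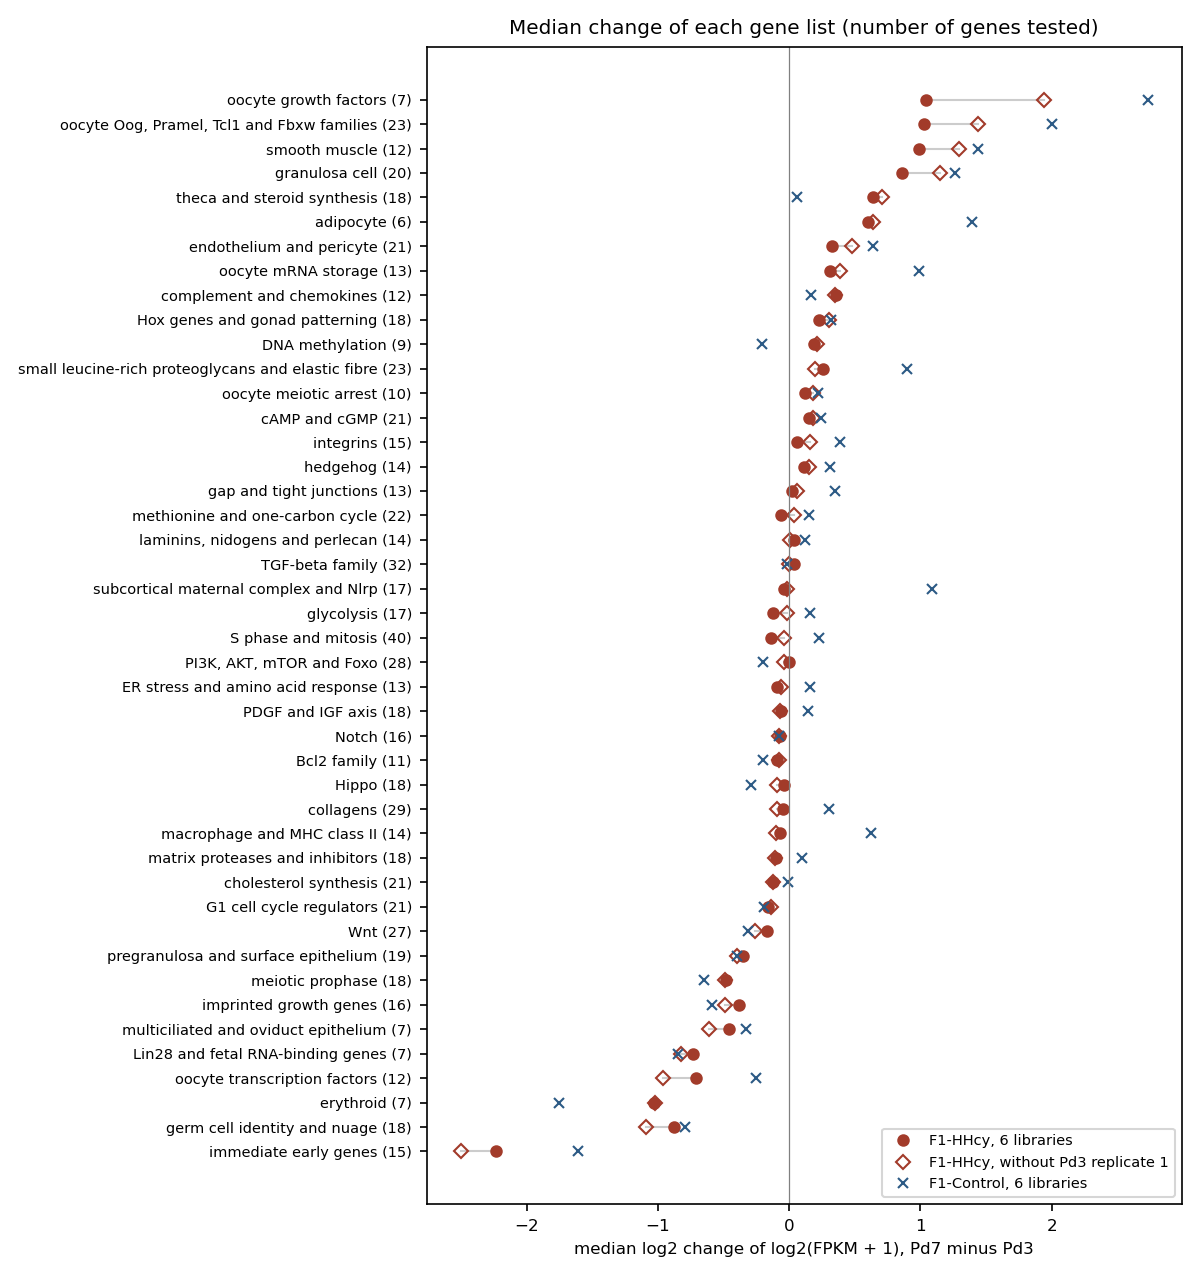
Median change of log2(FPKM + 1) from Pd3 to Pd7 over the tested genes of each list with at least 6 of them, with filled circles for 6 F1-HHcy libraries, open diamonds without F1-HHcy Pd3 replicate 1 and crosses for F1-Control. Crosses leave out genes not tested in F1-Control, so the medians of a list can cover different genes. Oocyte growth factors, clustered oocyte families, smooth muscle and granulosa cells lie highest and immediate early, erythroid and germ cell genes lowest in F1-HHcy. The theca and steroid list is at 0.64 over 18 genes in F1-HHcy and at 0.06 over 14 of them in F1-Control. Cyp17a1, Cyp11a1, Lhcgr and Insl3 are missing from the latter, so these 2 medians are not a like comparison.

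The change under HHcy was set against that of F1-Control, with no library in common. Of 1409 genes called in F1-Control and tested in F1-HHcy, 1159 (82.3%) had the same sign in F1-HHcy, and 1212 changed by less in F1-HHcy. The median size of their change was 0.46 in F1-HHcy and 0.87 in F1-Control, where they had been chosen. The difference between the changes was tested as an interaction in the 12 libraries of batch 1. Of 13998 genes, 22 changed more positively in F1-HHcy (0.157%) and 50 more negatively (0.357%) at an adjusted p under 0.05 (limma) and a difference above 0.58 in size. These counts rested on single libraries. They were 0 and 1 without F1-HHcy Pd3 replicate 2, 0 and 0 without F1-Control Pd3 replicate 1 and likewise without F1-Control Pd3 replicate 2, but 121 and 326 without F1-HHcy Pd3 replicate 3. Without F1-HHcy Pd3 replicate 1 they were 73 and 124, without F1-HHcy Pd7 replicates 1, 2 or 3 they were 1 and 10, 2 and 3, and 12 and 40, without F1-Control Pd3 replicate 3 they were 12 and 46, and without F1-Control Pd7 replicates 1 or 2 they were 99 and 68, and 16 and 20.

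For 48 of the 50 genes with the more negative change, all F1-HHcy Pd3 libraries lay above all F1-Control Pd3 libraries, and 45 of the 50 were called higher at Pd7 in F1-Control. These values enter the difference by which the genes were selected, so the selection favoured both counts. No share over all genes stands beside them. Oocyte genes were among the 50. Zp2 had a difference of -2.31 (SE 0.35, adjusted p = 0.0192) and Zp3 one of -2.14 (SE 0.41, adjusted p = 0.0428). Zar1, a maternal RNA-binding protein, was at 86.8, 78.5 and 40.8 FPKM at Pd3 and 76.7, 61.6 and 119 FPKM at Pd7 in F1-HHcy. In F1-Control it was at 7.12, 9.17 and 14.1 FPKM at Pd3 and 51.8, 91.6 and 88.0 FPKM at Pd7, so that only the F1-Control Pd3 libraries were low (difference -2.49, SE 0.47, adjusted p = 0.0428). The maternal genes Nlrp14 and Npm2 had differences of -1.97 and -1.71 (adjusted p = 0.0428 and 0.0302).

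Stromal genes were among them too. Pdgfra, the PDGF receptor of mesenchyme, was at 46.1, 42.5 and 32.0 FPKM at Pd3 and 57.2, 61.4 and 37.5 FPKM at Pd7 in F1-HHcy. In F1-Control it was at 8.34, 11.6 and 11.6 FPKM at Pd3 and 37.9, 35.9 and 47.5 FPKM at Pd7, again low at Pd3 alone (difference -1.50, adjusted p = 0.0428). The largest differences of this sign were those of A530040E14Rik (-3.52), Pcp4 (-3.32) and Sp110 (-2.88). Pcp4, a calmodulin-binding peptide, was at 5.72, 12.8 and 4.34 FPKM at Pd3 and 1.97, 3.62 and 2.53 FPKM at Pd7 in F1-HHcy and at 3.06, 2.44 and 2.35 FPKM at Pd3 and 15.2, 20.6 and 11.9 FPKM at Pd7 in F1-Control, so that its ages lay in opposite order in the diets.

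Of the 22 genes of the opposite sign, 19 were tested in F1-HHcy and had a positive change there, and 11 had been called lower in F1-Control. The selection favoured these counts in the same way. Serpina5, an inhibitor of serine proteases, was at 1.73, 0.0735 and 0.0127 FPKM at Pd3 and 8.41, 6.10 and 19.9 FPKM at Pd7 in F1-HHcy, and at most 0.144 FPKM in the 6 F1-Control libraries (difference 2.87, SE 0.55, adjusted p = 0.0428). Serpina5 entered the test only through F1-HHcy libraries, so the filter favoured the sign of its difference. Prxl2a, a redox protein, was at 9.14, 6.63 and 6.07 FPKM at Pd3 and 15.5, 14.7 and 19.5 FPKM at Pd7 in F1-HHcy and at 18.2, 18.2 and 11.8 FPKM at Pd3 and 11.7, 5.53 and 8.45 FPKM at Pd7 in F1-Control (difference 1.96, adjusted p = 0.028). Its ages did not overlap in either diet and stood in opposite order. Cyp17a1 and Cyp11a1 had differences of 3.70 and 2.45 with adjusted p-values of 0.241 and 0.31, with wide spread at F1-HHcy Pd3 and F1-Control Pd7.

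**Figure D4:**
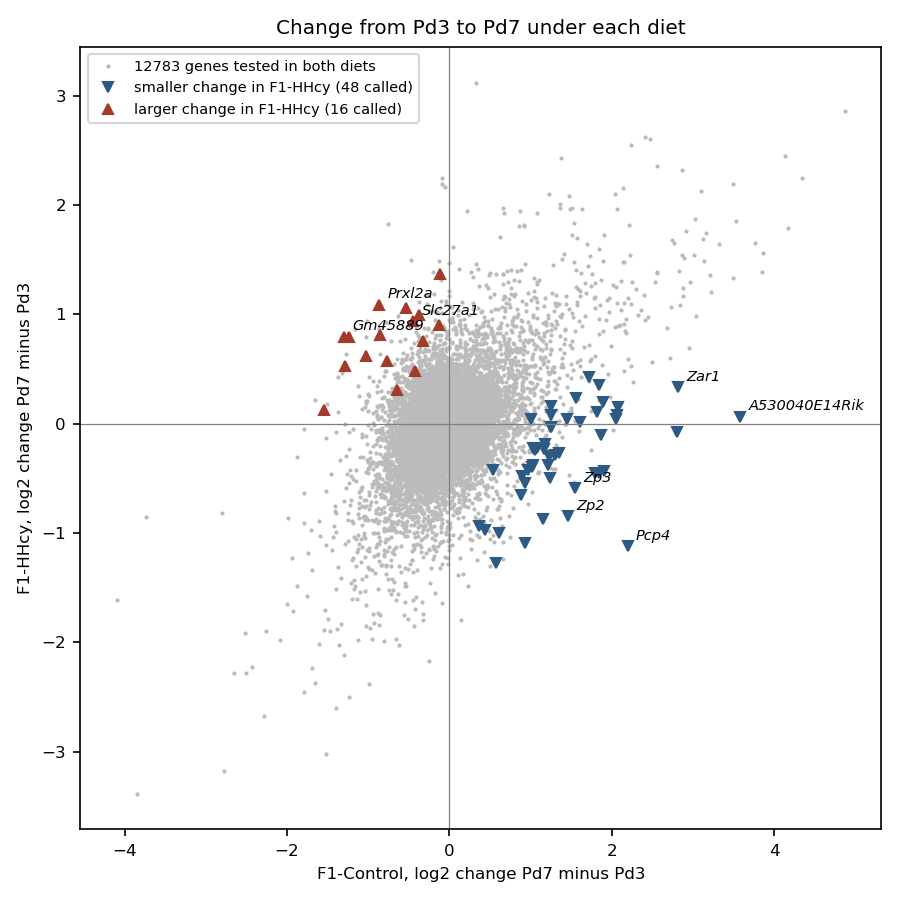
Change of log2(FPKM + 1) from Pd3 to Pd7 in F1-Control (x axis) and F1-HHcy (y axis) for the 12783 genes tested in both diets (grey). Triangles are genes called for a difference between the changes. In F1-HHcy, 48 pointing down had a more negative change (smaller in the legend) and 16 pointing up a more positive one (larger in the legend). Of the 48, 33 lie below 0 on the y axis, with Zp2 at 1.46 in F1-Control and -0.84 in F1-HHcy.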

How the data were processed

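Whole-ovary RNA of F1 mice was sequenced, and the 3 F1-HHcy libraries each at Pd3 and Pd7 were compared, with the F1-Control libraries of these ages beside them, all grouped by their labels. The table that the authors deposited holds 30172 gene symbols with a value for each library and names no unit. These deposited values were taken as FPKM because 1 length per gene gave whole fragments for 99.989% of 27294 genes, and the recovered fragments made up at least 99.9976% of every total. The submitters' processing notes name Trimmomatic 0.39, STAR 2.7.9a, featureCounts 2.0.1 and GRCm38/mm10, with no role stated. Depth was 33630487 to 37059285 fragments, and intervals from counting were not used.

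Genes that reached 1 FPKM in 3 or more libraries were tested on log2(FPKM + 1) with limma 3.58.1 in R 4.3.3, with a variance trend and Benjamini-Hochberg adjusted p-values. A gene was called at an adjusted p under 0.05 and a log2 change above 0.58 in size. The interaction was fitted in 12 libraries. The test was tried on simulated data. For a single gene, 3 libraries against 3 allow no 2-sided exact permutation p below 0.1. Named genes were the 12 largest changes in each direction without overlap, genes marked as key in the lists, those with the highest level or smallest p of a list, and the 6 largest differences in each direction. Since 0 genes were called, the first of these rules was applied to nominal genes, and the 6 smallest p-values were added, both after the values were seen. Some members of lists outside these rules were named after their values were seen. The libraries, the lists and the genes were chosen with earlier results of these data known. Same-numbered libraries shared only a number, since the correlations of their deviations were -0.021, 0.123 and 0.088. Alternatives were another pseudocount, filter, scaling, threshold or model, a replicate block, limma-voom on recovered fragments, and each library left out in turn. Python 3.11.15 with pandas 2.3.3 and matplotlib 3.10.9 served for tables and plots.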

Additional observations from a re-analysis of the deposited data

Results flagged for a closer look

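The results below stand out because the change from Pd3 to Pd7 differed between the diets by the test of the difference itself, in 12 libraries of batch 1. In all, 22 genes had a more positive and 50 a more negative change in F1-HHcy than in F1-Control, as log2 changes of F1-HHcy minus F1-Control. The sign does not tell in which diet a gene changed by more. No group held 4 libraries, so single libraries were not tested as outliers.

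Among the more negative changes were oocyte genes, with differences of -2.49 for Zar1, -2.31 for Zp2, -2.14 for Zp3, -1.97 for Nlrp14 and -1.71 for Npm2. In each of these 5 genes the differences came with F1-HHcy Pd3 libraries above all F1-Control Pd3 libraries, values that enter the difference itself. The stromal receptor Pdgfra had a difference of -1.50. A530040E14Rik (-3.52), Pcp4 (-3.32), Sp110 (-2.88) and Smim41 (-2.34) were further genes of this sign. Sp110, a nuclear body protein, was at 36.1, 37.9 and 16.1 FPKM at Pd3 and 25.9, 22.6 and 32.3 FPKM at Pd7 in F1-HHcy and at 3.07, 3.55 and 5.57 FPKM at Pd3 and 24.9, 39.1 and 38.8 FPKM at Pd7 in F1-Control.

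Among the more positive changes were Serpina5 (2.87), Gm45889 (2.09), Gm39876 (2.03), Prxl2a (1.96), Svs5 (1.93) and Slc30a2 (1.80). Serpina5 entered the test only through F1-HHcy libraries, so the filter favoured its sign. Slc30a2, a zinc transporter, was at 1.02, 0.905 and 1.22 FPKM at Pd3 and 1.63, 1.31 and 3.18 FPKM at Pd7 in F1-HHcy and at 3.58, 2.91 and 2.78 FPKM at Pd3 and 0.780, 0.552 and 0.706 FPKM at Pd7 in F1-Control. Svs5, a gene named for its seminal vesicle product, was at 0.184, 0.510 and 0.338 FPKM at Pd3 and 0.341, 0.396 and 0.718 FPKM at Pd7 in F1-HHcy and at 3.59, 5.15 and 2.80 FPKM at Pd3 and 0.186, 0.800 and 0.227 FPKM at Pd7 in F1-Control. It entered the test only through the F1-Control Pd3 libraries, and its other values lie under 1 FPKM. The part of single libraries in these differences is given with the counts below.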

How the results depend on the processing

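In F1-HHcy, 0 genes were higher and 0 lower at Pd7 under another pseudocount, no filter, median-ratio scaling, no fold threshold, limma-voom on recovered fragments and without mitochondrial and hemoglobin genes. With unadjusted p the counts were 760 and 711, and with 12 libraries in 1 model 320 and 324. With a replicate block 5 genes were lower. Leaving out a library gave 0 to 540 higher and 0 to 596 lower genes, above 0 only without F1-HHcy Pd3 replicate 1. In F1-Control, no filter gave 416 higher and 231 lower genes, and leaving out a library 406 to 687 and 188 to 1205, lowest in both without F1-Control Pd3 replicate 1 and highest without F1-Control Pd7 replicate 1. Of the differences between the diets, 22 of positive and 50 of negative sign became 837 and 788 with unadjusted p. They were 7 and 8 with no filter, 13 and 28 with a replicate block, and 0 to 121 and 0 to 326 when a library was left out. Limma-voom gave 12 of positive sign. The cause of these moves was not tested, except that leaving out a library leaves fewer samples and no filter tests more genes. With 1 library left out, the log2 change in F1-HHcy changed sign for Col1a1 (-0.22 to 0.11), Mki67 (-0.47 to 0.17), Sp110 (-0.46 to 0.14) and Zar1 (-0.0013 to 0.54), none of which had passed the test. Depth limits genes near 1 FPKM. The part of the spread of the 3 F1-HHcy Pd3 libraries in the count of 0 was not tested beyond leaving out libraries.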

Other observations

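Adhesion genes differed by member. Of 15 tested integrin genes, 4 (Itga1, Itga10, Itga11 and Itgb3) were nominally higher at Pd7 and 1, Itga3, lower. Itga11, a collagen receptor of stroma, was at 2.08, 2.28 and 0.848 FPKM at Pd3 and 2.64, 2.93 and 3.54 FPKM at Pd7 in F1-HHcy, where the Pd7 libraries were above all Pd3 libraries. Of 13 genes of gap and tight junctions, 2 (Gja1 and Cldn11) were nominally higher and 2 (Cldn3 and Ocln) lower. Cldn11, a claudin of granulosa and Sertoli cells, had a log2 change of 1.42 (adjusted p = 0.122, 0.0191 in the 5-library fit). Epcam, an epithelial adhesion protein, was nominally lower at 18.9, 41.4 and 46.7 FPKM at Pd3 and 11.8, 12.6 and 8.13 FPKM at Pd7 (log2 change -1.56, adjusted p = 0.0961, 0.00642 in the 5-library fit).

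General metabolism and stress genes showed shares near or below those of all genes. Of 17 glycolysis genes 0 were nominally higher or lower, with a median change of -0.12, and of -0.27 without Pd3 replicate 3. Of 21 genes of cholesterol synthesis 1, Sc5d, was nominally higher and 2, Mvd and Insig1, lower. Of 13 genes of ER stress and the amino acid response 1, Ern1, was nominally higher and 0 lower, and of 11 tested genes of the Bcl2 family 1, Mcl1, was nominally lower and 0 higher. Of 18 Hox and gonad patterning genes 1, Osr2, was nominally higher and 0 lower, at 12.6, 5.95 and 9.56 FPKM at Pd3 and 18.6, 16.2 and 21.0 FPKM at Pd7.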
